A study of Rattus norvegicus with 6 samples.

Results

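The mitochondrial ribosomal protein genes were taken from the deposited rat gene count table as every row whose name is Mrpl or Mrps followed by a number and optional trailing letters or digits. The rule found 72 of the 30498 rows, with 71 distinct names. All are nuclear genes. Of the 72, 44 encode proteins of the large subunit of the mitochondrial ribosome and 25 encode proteins of the small subunit. The remaining rows were Mrps36, which is now known as a subunit of the 2-oxoglutarate dehydrogenase complex, Mrps21l, which is named as a copy of Mrps21, and a second row named Mrpl42 on chromosome 13. That second Mrpl42 row, 426 bases long, had counts of 1, 0 and 1 in the rbMSC libraries and 2, 0 and 0 in the rcMSC libraries. It failed the filter on low counts and was not tested, which left 71 genes. Mrps30 and Mrps18a were counted with the large subunit, where their proteins sit despite their names. The other 3 such names are written in lower case in the table and fall outside the rule (mrpl9, mrpl11 and mrpl24).

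RNA sequencing compared rat mesenchymal stem cells from 2 marrows, with 3 libraries each and a genotype given as WT for all 6. The rcMSC libraries came from cranial bone marrow. The rbMSC libraries came from long bone marrow, labelled as tibias and "ferms", read here as femurs. The series title concerns transplantation of the cranial cells after spinal cord injury, and no library here is from an injured or transplanted animal by its labels. The sources used here do not give strain, age or passage, nor whether the 3 libraries of a group are separate animals or cultures. The spread that p-values measure is therefore that of these libraries and may be technical. In bulk RNA, fewer cells of a type and less RNA per cell cannot be told apart.

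The mitochondrial ribosome translates the few messenger RNAs of the mitochondrial genome, whose products are core subunits of the respiratory chain and of ATP synthase. Its ribosomal RNAs come from mitochondrial DNA, whereas its proteins are made in the cytosol from nuclear genes and imported. Besides those with bacterial homologues, many of these proteins are particular to mitochondria, so the particle is richer in protein than the bacterial one. Marrow stromal cells in culture shift the balance of glycolysis and respiration as they differentiate.

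Total counts ran from 21340290 to 26928079 per library. One library stood apart: rcMSC replicate 3 differed from the other rcMSC libraries with a chi-square per degree of freedom of 42.8 and 42.0 over genes, against 3.16 between rcMSC replicates 1 and 2 and 2.69 to 2.92 among the rbMSC libraries. All 9 mesenchymal markers on the list passed the test, 3 higher (33.3%) and 6 lower (66.7%) in rcMSC, against 22.6% and 23.2% of all tested genes. Thy1 and Pdgfrb were at 498 to 1120 CPM in every library (CPM is the count scaled to the size of the library). Both were among the 6 lower, at log2 fold changes of -1.12 and -0.92. Of the other markers, Itgb1, also lower, was at 1320 to 2000 CPM, whereas Vcam1 was at 2.16 to 9.47 CPM and Nt5e at 13.7 to 37.9 CPM. The 3 higher were Alcam, Eng and Cd44, at log2 fold changes of 1.11, 0.88 and 0.58. Cd44 was at 475 to 789 CPM. Markers of macrophages were present in all libraries too. Their summed level was 1200 CPM in each rbMSC library and 725 to 754 CPM in the rcMSC libraries. Of 16 tested markers 11 were lower in rcMSC (68.8%, against 23.2% of all tested genes) and none was higher. Ptprc, Csf1r and Cd68 were at 0 in no library. The untested marker, Cd163, had 0 to 5 counts in the 6 libraries. Cell cycle genes moved the same way, 19 of 27 lower in rcMSC (70.4%, against 23.2% of all tested genes) with a median log2 fold change of -1. Their summed level was 860 to 862 CPM in rbMSC against 508 to 562 CPM in rcMSC. The part of either in the results below was not tested.

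Promoters of these genes are known to carry letters bound by nuclear respiratory factors, which tie nuclear genes to mitochondrial need. RefSeq promoters of the build GRCr8, 250 bases before to 50 after the start, were matched by symbol for 55 of the 72 rows. Searched on both strands, the NRF1 letters, GCGCA followed at once by TGCGC, were in 4 of 55 (7.27%), against 0.932% of all 27457 promoters and 1.95% of the 9898 promoters of tested genes. The ETS letters CCGGAAG, the core bound by GABPA, were in 19 of 55 (34.5%), against 9.22% and 17.5%. The YY1 letters AAGATGGC were in 13 of 55 (23.6%), against 3.44% and 5.35%. They lay before the start only in Mrpl32 (-220), Mrpl36 (-16) and Mrpl48 (-177). In the rest of the 13 they began 1 to 31 bases after the start. Altogether 28 of the 55 held NRF1, ETS or YY1 letters and 27 held none. The following stretches are printed as examples of each kind of letters, in 3 genes that passed the test below (Mrpl17, Mrpl32 and Mrpl48) and in Mrps27, which did not. Each is the 250 bases before the start in GRCr8, read 5′ to 3′ on the gene's strand, and capitals mark an NRF1, ETS or YY1 match on either strand. Mrpl17 lies at chr1:169575700-169575949 on the minus strand, Mrpl32 at chr17:55260401-55260650 on the plus strand, Mrpl48 at chr1:164351377-164351626 on the minus strand and Mrps27 at chr2:32473954-32474203 on the plus strand.
Mrpl17: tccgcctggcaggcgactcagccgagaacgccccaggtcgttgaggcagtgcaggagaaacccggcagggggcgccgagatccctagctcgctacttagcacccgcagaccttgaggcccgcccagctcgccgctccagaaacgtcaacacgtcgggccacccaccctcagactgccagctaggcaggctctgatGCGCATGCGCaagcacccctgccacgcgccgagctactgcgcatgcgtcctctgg
Mrpl32: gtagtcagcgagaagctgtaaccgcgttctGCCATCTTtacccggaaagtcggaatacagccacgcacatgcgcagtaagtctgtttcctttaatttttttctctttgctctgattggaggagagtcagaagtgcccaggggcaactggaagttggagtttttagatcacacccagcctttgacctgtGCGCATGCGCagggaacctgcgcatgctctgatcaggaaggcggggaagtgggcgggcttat
Mrpl48: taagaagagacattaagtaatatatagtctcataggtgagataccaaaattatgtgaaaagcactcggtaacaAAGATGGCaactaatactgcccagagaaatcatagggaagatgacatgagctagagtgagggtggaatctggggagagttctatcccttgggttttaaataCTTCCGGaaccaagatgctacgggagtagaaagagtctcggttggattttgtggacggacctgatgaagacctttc
Mrps27: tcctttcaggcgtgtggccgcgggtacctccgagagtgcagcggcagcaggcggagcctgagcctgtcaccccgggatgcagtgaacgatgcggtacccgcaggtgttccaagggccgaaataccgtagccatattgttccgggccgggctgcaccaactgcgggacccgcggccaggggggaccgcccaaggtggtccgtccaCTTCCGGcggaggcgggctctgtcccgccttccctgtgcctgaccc
The capitals are NRF1 in Mrpl17, YY1 then NRF1 in Mrpl32, YY1 then ETS in Mrpl48, and ETS in Mrps27, whose YY1 letters lie after the start and are not shown. A match is a description of the letters and not a site. The letters occurred among genes that passed the comparison below and among those that did not. ETS letters were in 10 of the 31 matched genes that passed it and in 9 of the 24 that did not, YY1 letters in 5 of 31 and 8 of 24, and NRF1 letters in 3 of 31 and 1 of 24.

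The comparison of rcMSC with rbMSC asked how the cranial marrow cells differ from the long bone marrow cells. Of the 71 tested genes, 38 were higher in rcMSC, 0 were lower and 33 did not pass (edgeR quasi-likelihood test, adjusted p under 0.05 over all 14836 tested genes). Over all tested genes, 22.6% were higher and 23.2% were lower by the same rule, so the share higher among the ribosomal protein genes (53.5%) was above the background and the share lower was under it. At an unadjusted p under 0.05 edgeR still gave 0 lower, where 3976 of all 14836 tested genes were lower. At an adjusted p under 0.05 DESeq2 and limma voom each gave 0 lower, where they called 19.1% and 29.5% of all genes lower. The changes were small. The median log2 fold change was 0.40, with quartiles of 0.22 and 0.56 and a range of -0.13 to 0.89, against a median of 0.02 over all genes. None of the 71 reached 2-fold, a size that 854 genes of the table (5.76%) reached as higher calls. The log2 fold change was positive for 69 of 71, and in 47 of 71 all 3 rcMSC libraries lay above all 3 rbMSC libraries, against 28.3% of all genes.

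**Figure D1:**
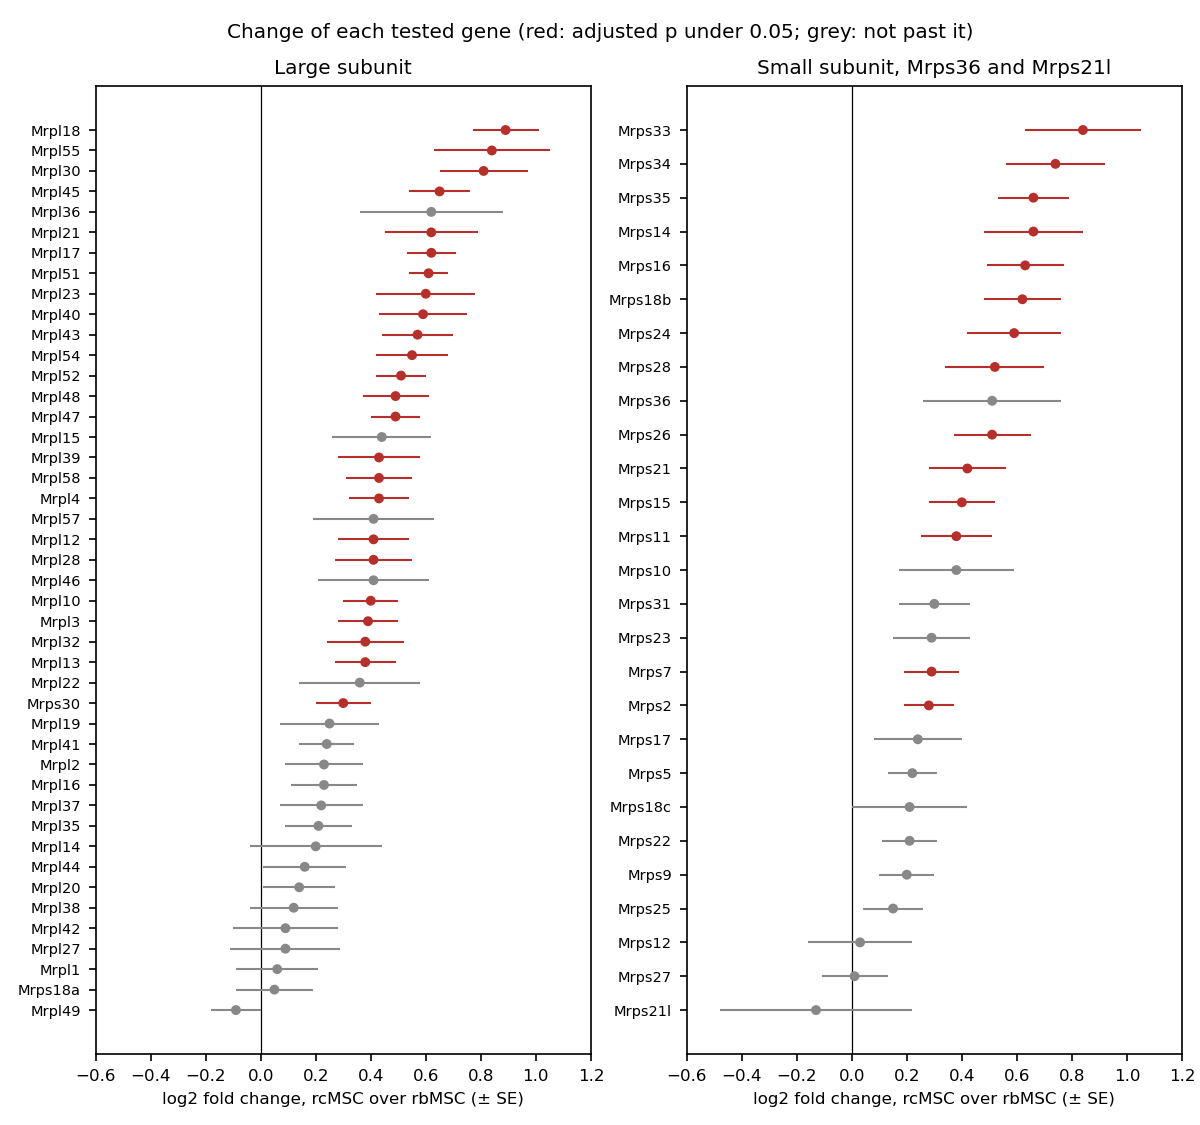
Log2 fold change of each tested gene, rcMSC over rbMSC, on the x axis with its standard error as the bar, one gene a row; the left panel holds the large subunit, the right the small subunit with Mrps36 and Mrps21l, and red marks adjusted p under 0.05. All 38 red points lie to the right of 0, and the 2 genes left of 0, Mrpl49 and Mrps21l, are grey.

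Summed over the 71 tested genes and the untested copy, the level was 729, 732 and 761 CPM in the rbMSC libraries and 1050, 1080 and 888 CPM in the rcMSC libraries. The groups did not overlap, and rcMSC replicate 3 lay nearest to rbMSC. Each gene's level over its own rbMSC mean gave the same order: the median log2 value was -0.04, -0.03 and 0.03 in the rbMSC libraries and 0.43, 0.51 and 0.23 in the rcMSC libraries. Replicate 3 was the lowest of the rcMSC libraries in 59 of 71 genes (83.1%), against 41.7% of all tested genes. Without that library, 52 of the 71 were higher, 0 were lower and the median log2 fold change was 0.48, and 29.9% of all genes were then called higher and 30.2% lower.

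**Figure D2:**
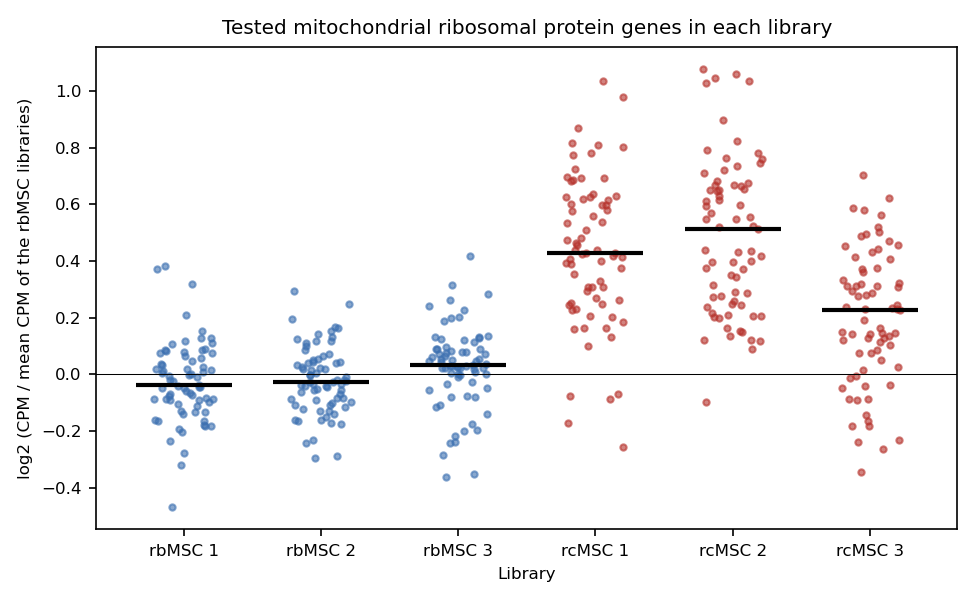
Log2 ratio of each gene's CPM to its mean in the rbMSC libraries (y axis) in each of the 6 libraries (x axis), one point a tested gene, with black bars at the medians. The medians of the rcMSC libraries are 0.43, 0.51 and 0.23, all above the rbMSC medians of -0.04 to 0.03, and rcMSC replicate 3 is the lowest of the rcMSC libraries.

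Both subunits held genes that were higher. In the large subunit 24 of 44 genes were higher (54.5%, median log2 fold change 0.41). The small subunit gave 14 of 25 (56%, median 0.38). Of all tested genes 22.6% were higher, with a median of 0.02. In the large subunit, proteins with bacterial homologues and those particular to mitochondria gave 14 of 25 (56%) and 10 of 19 (52.6%). In the small subunit these classes gave 9 of 15 (60%) and 5 of 10 (50%). Mrpl55, which passed, is counted here with the homologues, a placement that is less certain than the others. The difference between these classes was not tested. The ratio of summed levels per kb of gene length, large over small subunit, was 2.62, 2.59 and 2.63 in the rbMSC libraries and 2.87, 2.77 and 2.66 in the rcMSC libraries. The most abundant genes, Mrpl17 and Mrpl51, took 14.1% to 16.8% and 9.13% to 11.0% of the family's counts. With both left out the ratio was 1.70, 1.69 and 1.71 in rbMSC and 1.74, 1.71 and 1.63 in rcMSC, and the groups overlapped.

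Among the large subunit genes, Mrpl18, whose protein has a bacterial homologue in the central protuberance of the subunit, changed most. Its level was 8.94, 8.70 and 8.83 CPM in rbMSC and 17.4, 18.0 and 13.6 CPM in rcMSC, 0.89 ± 0.12 higher on the log2 scale (± SE) with an edgeR adjusted p of 0.00022. The rbMSC libraries were nearly equal and the lowest rcMSC library was replicate 3, still well above them. Exons of Mrpl18 (chromosome 1, 47836561 to 47841987, plus strand, mRatBN7.2) overlap those of Tcp1 on the opposite strand, which had 910% of its counts and a log2 fold change of -0.07. Mrpl55 was read at 3.70, 2.42 and 2.46 CPM in rbMSC and 4.92, 6.04 and 4.28 CPM in rcMSC (log2 fold change 0.84 ± 0.21, edgeR adjusted p = 0.00937). Its rbMSC replicate 1 lay closest to the rcMSC range. Mrpl30 went from 5.43, 5.75 and 6.10 CPM to 10.1, 12 and 8.08 CPM, a log2 fold change of 0.81 ± 0.16. RefSeq names 9 pseudogenes after Mrpl30, the most of any gene here, and the sources used here do not say how reads mapping to several places were counted, so its level is uncertain.

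Mrpl45 encodes a protein at the polypeptide exit of the large subunit that holds the ribosome to the inner membrane. It was read at 10.1, 9.04 and 9.62 CPM in rbMSC and 13.4, 16.1 and 15.6 CPM in rcMSC (log2 fold change 0.65 ± 0.11, edgeR adjusted p = 0.00086). It is one of the few genes in which rcMSC replicate 3 was not the lowest of its group. Mrpl17, whose promoter is printed above and whose protein has a bacterial homologue near the exit tunnel, went from 104, 103 and 114 CPM to 177, 175 and 142 CPM. That is a log2 fold change of 0.62 ± 0.09, with no overlap. Mrpl51 had the lowest adjusted p of the family (9.53e-05), with 72.7, 73.1 and 69.5 CPM in rbMSC and 116, 114 and 97.5 CPM in rcMSC.

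Among the small subunit genes, Mrps33 had the largest change, 0.84 ± 0.21 on the log2 scale, from 3.09, 3.59 and 3.80 CPM to 7.17, 7.22 and 4.40 CPM. The third rcMSC library lay much nearer to rbMSC than replicates 1 and 2 did. Mrps34, needed for a stable small subunit, went from 2.99, 2.94 and 3.17 CPM to 4.52, 6.22 and 4.48 CPM (log2 fold change 0.74 ± 0.18). Its exons overlap those of Mapk8ip3 on the opposite strand, which had 1550% of its counts, and those of Nme3 on the same strand. Mrps35 was read at 6.13, 5.75 and 5.47 CPM in rbMSC and 10.2, 8.95 and 8.16 CPM in rcMSC (0.66 ± 0.13). Mrps14 and Mrps16, both with bacterial homologues, had log2 fold changes of 0.66 ± 0.18 and 0.63 ± 0.14. The lowest rcMSC value of Mrps14, 14.5 CPM, was just above its highest rbMSC value, 14.1 CPM, and without rbMSC replicate 1 its edgeR adjusted p was 0.0564.

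The smallest changes that passed were those of Mrps2, Mrps7 and Mrps30, at log2 fold changes of 0.28, 0.29 and 0.30. The other 7 of the 10 smallest were Mrps11, Mrpl32 and Mrpl13 at 0.38, Mrpl3 at 0.39, Mrps15 and Mrpl10 at 0.40 and Mrpl28 at 0.41. Mrps2 was read at 15.2, 14 and 13.8 CPM in rbMSC and 17, 17.5 and 17.5 CPM in rcMSC, so that a small shift was set against a narrow spread. Of these 10, only Mrpl10, a protein of the stalk base to which Mrpl12 binds, passed in every alternative that was run. In all, 15 of the 38 did so: Mrpl10, Mrpl17, Mrpl18, Mrpl30, Mrpl43, Mrpl45, Mrpl47, Mrpl48, Mrpl51, Mrpl52, Mrpl55, Mrps16, Mrps18b, Mrps34 and Mrps35.

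Paralogs and members with a second known role varied among themselves. The paralogs of the S18 protein, of which a ribosome carries each at a different place, differed: Mrps18b was higher in rcMSC (log2 fold change 0.62 ± 0.14, edgeR adjusted p = 0.00408), whereas Mrps18a and Mrps18c did not pass, at 0.05 ± 0.14 and 0.21 ± 0.21. Differences between the paralogs were not tested. Mrps18b was read at 6.5, 6.32 and 8.56 CPM in rbMSC and 11.0, 11.2 and 10.7 CPM in rcMSC, and Mrps18a at 7.39, 7.14 and 7.49 CPM against 8.23, 8.43 and 6.12 CPM. The groups were apart for the first and overlapped for the second. Mrpl12, the stalk protein also reported to bind the mitochondrial RNA polymerase, was higher at 0.41 ± 0.13, with 10.5, 10.5 and 10.4 CPM against 15.2, 15.4 and 11.1 CPM. Mrpl58, a peptidyl-tRNA hydrolase built into the large subunit that can free stalled chains, was higher at 0.43 ± 0.12, and there rcMSC replicate 3 was the highest of its group (8.41, 8.06 and 8.60 CPM against 5.66, 6.66 and 6.30 CPM). Mrps36 did not pass, at 0.51 ± 0.25 with overlapping groups.

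Levels between genes were compared per kb of gene length, as the mean CPM per kb of a group. They spanned 0.954 to 93.1 in rbMSC, with a median of 4.83, and 1.09 to 143 in rcMSC, with a median of 6.51. In rbMSC 49 of the 71 lay within 2-fold of the median and in rcMSC 47 did. Mrpl17 stood far above the rest, at 93.1 ± 5.35 CPM per kb in rbMSC and 143 ± 17.3 in rcMSC (SD, n = 3), followed by Mrpl51 at 29.7 ± 0.822 and 45.3 ± 4.23. Mrpl54 came next with 16 ± 1.22 and 23.3 ± 3.55, a level that in rbMSC did not differ from that of Mrpl13 (16.2 ± 1.57) beyond their spread. The lowest in rbMSC, each given with its level in rcMSC after it, were Mrpl14 at 0.954 ± 0.188 and 1.09 ± 0.158, Mrps18c at 1.1 ± 0.207 and 1.26 ± 0.182, and Mrpl36 at 1.25 ± 0.362 and 1.94 ± 0.338. Their SDs overlap in rbMSC. In rcMSC Mrpl16, at 1.8, lay below Mrpl36. The order of the genes was nearly the same in both groups (Spearman rho 0.963 over 71 genes, which are not independent replicates and share libraries), and the level in rbMSC bore little relation to the change (rho -0.0533). RefSeq names 40 pseudogenes after 23 of these genes, 2 of them after Mrpl17, so a share of such levels may be split with copies.

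**Figure D3:**
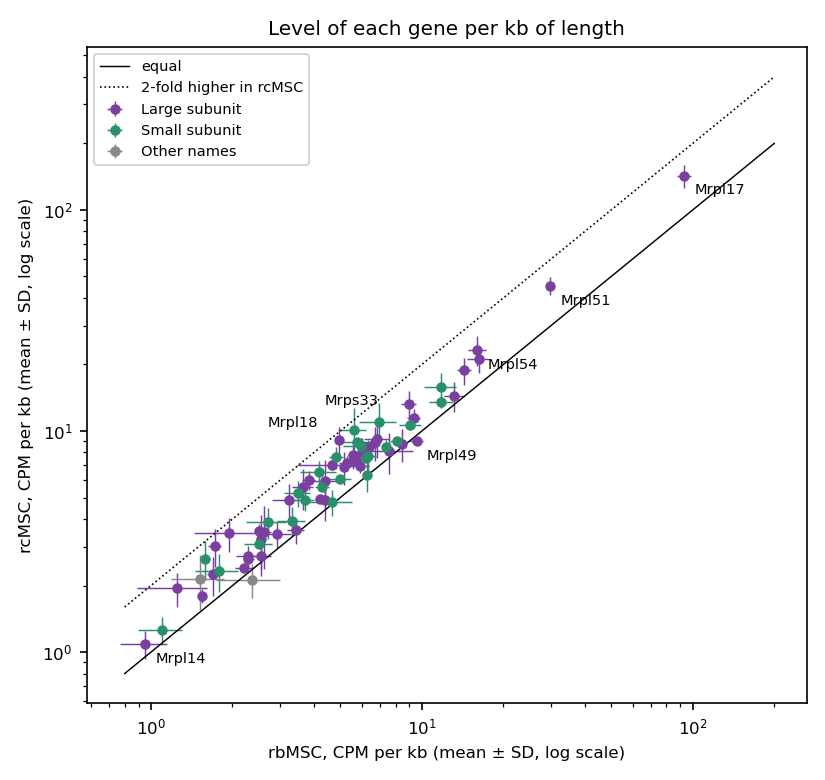
Mean level per kb of gene length in rcMSC (y axis) against rbMSC (x axis), in CPM per kb on log scales, one point a tested gene with SD bars over 3 libraries, coloured by subunit; the solid line marks equal levels and the dotted line 2-fold higher in rcMSC. Most points lie between the lines, and Mrpl17 at 93.1 and 143 is the highest.

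Gene length was considered because it moved with the comparison over the whole table. The tested ribosomal protein genes were short, with a median of 1499 bases of exon against 2960 over all tested genes. Over all 14836 genes the log2 fold change fell with length (Spearman rho -0.199, across genes), and among the 71 it did not (rho 0.0726). Other genes in the shortest of 10 length classes, 55 to 1087 bases, had a median log2 fold change of 0.29 and those in the longest class -0.14. The trend was weaker in rcMSC replicate 3. Over the rbMSC mean, the log2 medians of the other genes in rcMSC replicates 1, 2 and 3 were 0.23, 0.26 and 0.13 in the shortest class. In the longest class they were -0.17, -0.18 and -0.07. The part of gene length in the low values of replicate 3 was not tested. In the next shortest class, 1088 to 1639 bases, 25 of the ribosomal protein genes had a median of 0.41 with 14 higher, where the other 1462 genes had a median of 0.14 with 24.2% higher. In the shortest class the gap was smaller, 0.37 over 16 genes against 0.29. With the trend of expression with length taken out of each library, 23 of the 71 remained higher, 0 were lower and the median log2 fold change was 0.29, while 22.7% of all genes were higher and 22.4% lower. With rcMSC replicate 3 left out as well, 42 of the 71 were higher, 0 were lower and the median was 0.33, against 29.9% of all genes higher and 28.6% lower. Mrpl12, Mrpl13, Mrpl54, Mrpl58 and Mrps30 were among the 15 that no longer passed when only the trend was taken out, and Mrpl17, Mrpl18, Mrpl51 and Mrps33 still passed.

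**Figure D4:**
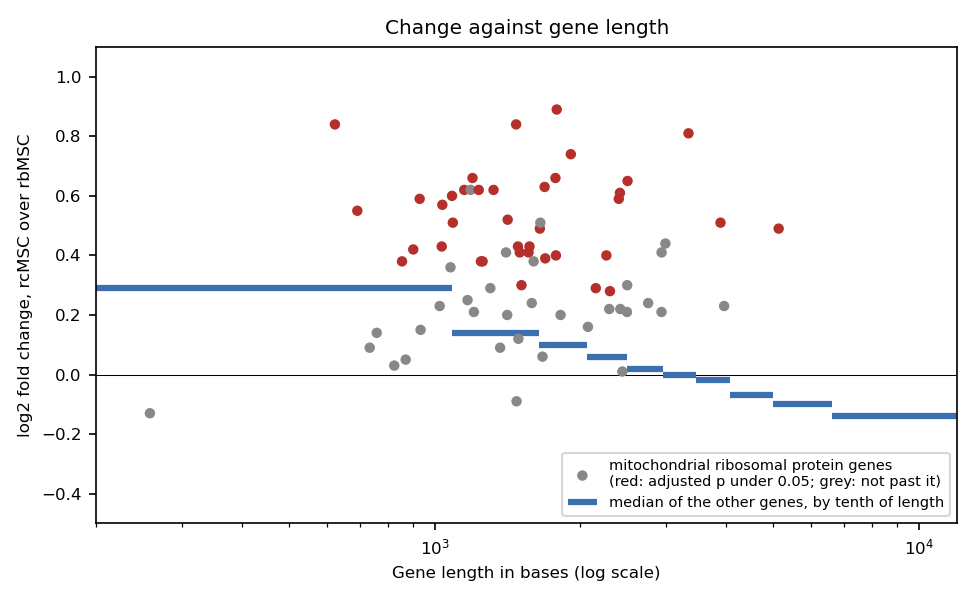
Log2 fold change, rcMSC over rbMSC (y axis), against gene length in bases on a log scale (x axis); points are the tested genes, red where adjusted p was under 0.05, and blue bars are the median of the other genes in each of 10 length classes. The blue bars fall from 0.29 to -0.14 with length, and most points lie above the bar of their own class.

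Many of these genes lie close to another gene. Exons of 18 of the 72 rows overlap exons of another gene, 16 of them on the opposite strand only, and the sources used here do not give the strand setting of the counting, so reads of such pairs cannot be told apart. The 53 tested genes with no such overlap gave 29 higher, 0 lower and a median of 0.41. A second gene started on the opposite strand within 1000 bases of the start of 26 rows, and in 23 of these pairs both genes were tested. Of the partners in these pairs 4 were higher, 5 lower and 14 did not pass, with a median log2 fold change of 0.02. That is near the values over all tested genes, 22.6% higher and 23.2% lower with a median of 0.02. Mrpl51 was higher at 0.61 while its neighbour Ncapd2, a condensin subunit used in mitosis, was lower at -0.58 ± 0.08. Mrpl49 did not pass at -0.09 ± 0.09 while its neighbour Fau, which encodes a cytosolic ribosomal protein, was higher at 1.14 ± 0.13. Mrpl47 and its neighbour Ndufb5, a subunit of respiratory complex I, were both higher, at 0.49 and 0.80. These 3 pairs were chosen after their values were seen.

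Genes that build or serve the mitochondrial ribosome were counted in the same way. Of 5 subunits with other names, Gadd45gip1 (0.73 ± 0.16) and Ptcd3 (0.30 ± 0.07) were higher and Dap3, a GTP-binding protein of the small subunit, was lower (-0.24 ± 0.08). Dap3 was read at 22.9, 21.1 and 24.1 CPM in rbMSC and 19.3, 19.6 and 18.9 CPM in rcMSC, with no overlap. It is the only subunit gene here that passed as lower, and it did not pass with DESeq2 (adjusted p = 0.0704). Among 27 rows of assembly factors, 4 were higher (14.8%) and 1 lower (3.7%), with a median log2 fold change of 0.23. Both shares were under those over all tested genes, 22.6% and 23.2%. The genes that passed were the GTPases Gtpbp10 (0.62) and Mtg2 (0.53), the small subunit maturation factor Rbfa (0.57) and the RNA methyltransferase Tfb1m (0.40), against the pseudouridine synthase Rpusd3 (-0.36). In Gtpbp10 rcMSC replicate 3 was the highest of its group, with 9 CPM against 6.59 and 7.14. The same held for Mtg2, with 12.5 CPM against 9.18 and 10.7. Among the 27 assembly factor rows, replicate 3 was the lowest rcMSC library in 51.9%. That share was 83.1% for the ribosomal protein genes and 41.7% for all tested genes.

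Translation factors gave 4 higher and 0 lower of 17 (median 0.19). The share higher, 23.5%, was near the 22.6% over all tested genes. At an unadjusted p under 0.05 edgeR gave 0 lower too, where 3976 of all 14836 tested genes were lower. Mtrf1 and Mtrfr, which act in the release of finished or stalled chains, were higher at 0.50 and 0.48, Taco1, an activator of translation of a cytochrome oxidase subunit, at 0.45, and the elongation factor Gfm1 at 0.26. Of 19 aminoacyl-tRNA synthetases and their partners, which charge the mitochondrial transfer RNAs, only Hars2 passed (0.28 ± 0.07), a share of 5.26%, and the median was 0.05. Among 12 genes of mitochondrial DNA transcription and replication 1 was higher, Tfam, which packages mitochondrial DNA (0.50 ± 0.10), and 1 lower, the DNA polymerase Polg (-0.33 ± 0.07), each 8.33% of the list. Without rcMSC replicate 3, 9 assembly factors, 8 translation factors and 1 synthetase were higher, and 1 assembly factor, 0 translation factors and 1 synthetase were lower. More of all genes were called in that setting too, 29.9% higher and 30.2% lower.

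**Figure D5:**
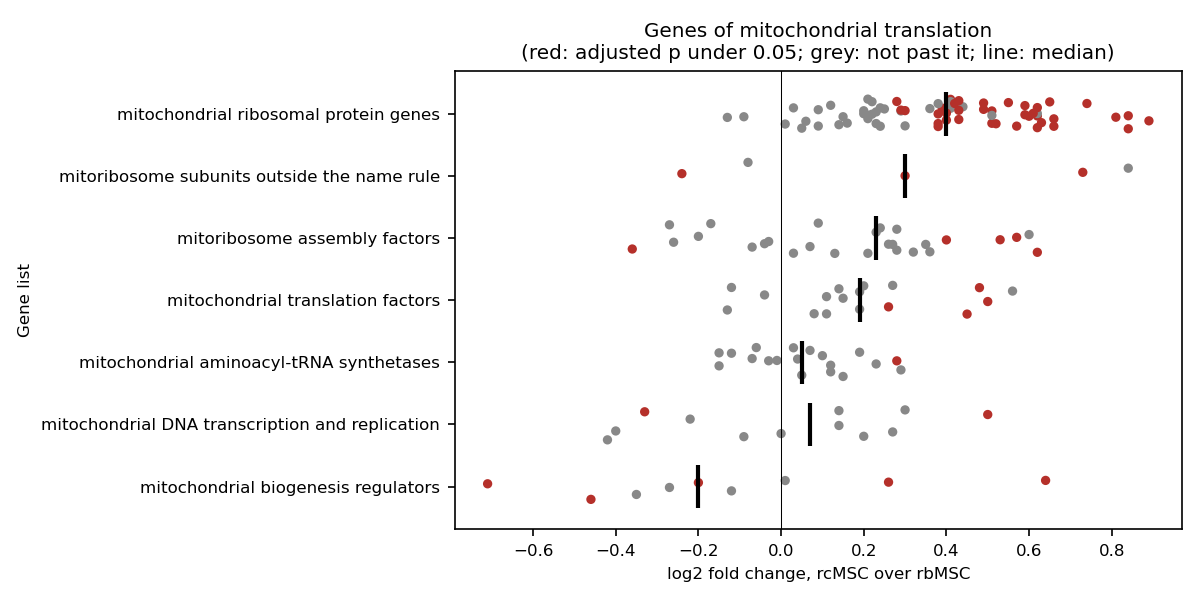
Log2 fold change, rcMSC over rbMSC (x axis), of each tested gene in 7 lists of mitochondrial translation genes (y axis); red points had adjusted p under 0.05, grey points did not, and black bars are list medians. The medians run from 0.40 for the ribosomal protein genes to 0.05 for the aminoacyl-tRNA synthetases and -0.20 for the regulators.

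Known regulators of such genes moved in both directions, 2 higher and 3 lower of 9 (22.2% and 33.3%, against 22.6% and 23.2% of all tested genes), with a median of -0.20. Myc, a growth-promoting transcription factor, was higher, with 5.15, 6.32 and 7.80 CPM in rbMSC and 10.3, 9.28 and 10.5 CPM in rcMSC (log2 fold change 0.64 ± 0.15, edgeR adjusted p = 0.00686). Gabpa, which binds ETS letters, was higher at 0.26 ± 0.06. Nrf1, whose protein is known to bind letters of the NRF1 kind, was lower, with 35.3, 32.1 and 31.1 CPM against 23.5, 23.6 and 24.4 CPM (-0.46 ± 0.08, edgeR adjusted p = 0.00081). The coactivators Ppargc1b (-0.71 ± 0.22) and Pprc1 (-0.20 ± 0.07) were lower too, and Ppargc1a, read at under 1 CPM in every library, did not pass (-0.27 ± 0.41).

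The family was set beside the families most like it. Of 103 tested cytosolic ribosomal protein genes, 97 were higher and 1 lower, with a median log2 fold change of 1.1, and 73 of them reached 2-fold. Of 74 tested nuclear genes for subunits of oxidative phosphorylation, 35 were higher and 1 lower, with a median of 0.34. The shares higher were 94.2% and 47.3%, where 22.6% of all tested genes were higher and 23.2% lower. Replicate 3 was the lowest rcMSC library in 94.2% of the cytosolic ribosomal protein genes and in 85.1% of the oxidative phosphorylation genes, against 83.1% of the mitochondrial ribosomal protein genes. Both comparison lists are short genes as well, with median lengths of 842 and 1302.5 bases. With the length trend taken out the medians were 0.88 for the cytosolic and 0.17 for the oxidative phosphorylation genes, with 91 and 26 higher. Of all genes 22.7% were then higher. The summed level of the cytosolic list was 6620, 6690 and 6930 CPM in rbMSC and 15800, 16500 and 11000 CPM in rcMSC. Differences between the families were not tested.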

How the data were processed

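The 6 libraries of total RNA were 3 rcMSC and 3 rbMSC. Per the labels' protocols, the authors trimmed paired reads of 150 nt (Trim Galore 0.6.7, then Trimmomatic 0.39), used STAR 2.7.9a to map them on mRatBN7.2, and obtained gene counts from featureCounts 2.0.1. The submitters' processing notes also name DESeq2 1.20.0. What they deposited are unnormalized gene counts, with a gene length that equals the summed exon spans. The sources used here do not give annotation release, strand setting or treatment of multi-mapping reads.

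From these counts, edgeR 4.0.16 (R 4.3.3) kept 14836 of 30498 genes with filterByExpr and fitted all 6 libraries with TMM scaling and a robust quasi-likelihood test, with Benjamini-Hochberg adjustment over all genes kept and a threshold of 0.05. CPM are TMM-scaled, fold changes are those of the fitted model, and a standard error is the fold change divided by the root of its F value. The length trend used log2 CPM with a prior count of 2. DESeq2 1.42.0 and limma 3.58.1 were alternatives, as were other scalings, filters, a replicate block, removal of the length trend (loess, span 0.5, per library) and leaving out each library. Scripts were tested on simulated data. The 2 alternatives of the length trend removed without rcMSC replicate 3 and the lower-case names added were chosen after seeing the data. The members and lists were chosen with earlier results of these data known. Genes were named by rule: the 10 largest and 10 smallest changes among those that passed, the 4 highest and 3 lowest levels per kb, 7 genes and 3 regulators whatever their values, and up to 3 per other list; any other gene named was chosen after its value was seen.

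Same-numbered libraries of the groups did not deviate together, so no pairing was assumed. At these depths 1 count is worth 0.0364 to 0.0468 CPM, and a tested gene had 12 to 4867 counts per library, which limits precision for the lowest.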

Additional observations from a re-analysis of the deposited data

How the results depend on the processing

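Without any one library, 21 to 52 of the 71 genes were higher in rcMSC, against 38 with all 6, and the median log2 fold change ran from 0.32 to 0.48; the low counts came from leaving out replicate 1 of rbMSC (21) or rcMSC (25) and replicate 2 of either group (24 each), and the highest from leaving out rcMSC replicate 3 (52). With fewer libraries, fewer genes passed over the whole table too, except without rcMSC replicate 3. The share of all genes called higher was 29.9% there, against 22.6% with all 6 libraries. It was 16.8% to 17.9% when any other single library was left out. Removing the length trend gave 23 higher, and 21 together with the replicate block, where 22.7% and 20.7% of all genes were higher. The cause was not tested. None of the alternatives called any of these genes lower, and no call reversed. The sign of the change was less stable: 11 of the 71 genes had a value below 0 under some setting, the main one included. With the length trend removed, 63 of the 71 kept their direction of the main fit. Other scalings gave 31 to 38 higher, where 20.6% to 22.8% of all genes were higher. DESeq2 gave 33, with 18.1% of all genes higher, and limma voom with quality weights gave 50, with 29.5%. No filter on low counts gave 35, with 15.6% of all genes higher. A filter of 1 CPM in 3 libraries gave 38, with 23.9%. With the 3 lower-case names added, 40 of 74 were higher. The counts over all genes stayed within 1.5 times of their main values under every alternative run.

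Same-numbered libraries had correlations of their deviations of -0.0293, 0.0177 and -0.0535, so the replicate numbers were taken as names only. With the replicate number as a block, 31 of the 71 were higher and 0 lower, where 20.5% of all genes were higher and 21.9% lower. The low-count genes Mrpl36, Mrpl14 and Mrps21l carried standard errors of 0.24 to 0.35 on the log2 scale. A change of the family's median size was therefore not detectable in them with these libraries. The parts of depth and of spread between libraries in these errors were not tested.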
